A study of Mus musculus with 9 samples.

Results

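The 8 genes described here encode the enzymes of the pentose phosphate pathway in the mouse: G6pdx, H6pd, Pgls, Pgd, Rpia, Rpe, Tkt and Taldo1. Rows of the deposited table were taken by these symbols, and all 8 were found among its 23224 gene symbols. All 8 passed the filter on low counts that left 15663 genes for testing. RNA was sequenced from cancer cells sorted from mouse lung tumours, to compare tumours that differed in the number of intact Smarca4 alleles. The protein of Smarca4, BRG1, is the motor subunit of BAF complexes, which move nucleosomes.

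All mice were of a mixed B6;129S2 strain and had both Trp53 alleles floxed (Trp53fl/fl) and a TdTom reporter at Rosa26 that Cre switches on. KP mice had Smarca4+/+ (n = 4 libraries), KPS-HET mice Smarca4fl/+ (n = 2) and KPS mice Smarca4fl/fl (n = 3). Cre was delivered into the trachea by an adenovirus under the CCSP promoter, a promoter of airway club cells, and lungs were taken when mice were moribund. The labels give neither the time since infection nor the sort gate. Nor do they say whether the libraries are from different mice; p-values cover only the variation among libraries.

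Levels are CPM, the counts of a gene scaled to a common library size, after scaling between libraries by the trimmed mean of M values (TMM). Library totals were 15275259 to 29231565 estimated counts in KP, 22705446 and 12607471 in KPS-HET replicates 1 and 2, and 21368864 to 37114352 in KPS. Smarca4 stood at 110 to 137 CPM in KP, 76.4 and 97.2 in KPS-HET and 39.9 to 55.5 in KPS, so the 3 groups did not overlap and were ordered by the labelled genotype. Smarca4 RNA was still counted in every KPS library, and whether it came from cancer cells or from other cells was not tested. Epcam, an epithelial surface marker, lay between 622 and 879 CPM in all 9 libraries. It is 1 of 9 lung epithelial markers listed, of which 1 was called higher and 2 lower in KPS than in KP, as described below. In bulk RNA, fewer cells of a type and less RNA per cell cannot be told apart.

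The pentose phosphate pathway branches from glycolysis at glucose 6-phosphate. Its oxidative branch, run by glucose-6-phosphate dehydrogenase (G6pdx), 6-phosphogluconolactonase (Pgls) and 6-phosphogluconate dehydrogenase (Pgd), makes NADPH at both dehydrogenase steps and ends in ribulose 5-phosphate. H6pd carries out the opening steps separately, inside the endoplasmic reticulum. The non-oxidative branch converts pentose phosphates reversibly into ribose 5-phosphate for nucleotides and back into glycolytic sugars: Rpia and Rpe are an isomerase and an epimerase, and Tkt and Taldo1, transketolase and transaldolase, move carbon units between sugars. NADPH is used to regenerate glutathione and to build lipids, and in the lung the pathway is known for supplying both antioxidant defence and surfactant lipid synthesis.

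In KPS tumours the RNAs of both cytosolic NADPH-making dehydrogenases rose and that of the reticulum enzyme H6pd fell. Relative to KP, Pgd was 3.13-fold and G6pdx 2.28-fold higher, and H6pd stood at 0.542 of its KP level. The remaining 5 enzymes, including all 4 of the non-oxidative branch, had negative fold changes that did not pass the test. A gene was called where the adjusted p of edgeR's quasi-likelihood test, Benjamini-Hochberg over all genes tested, lay below 0.05. Thus 3 of the 8 enzymes were called, where 7.24% of all genes tested were: 2 of 8 higher, against 3.96% of all genes, and 1 of 8 lower, against 3.28%. The median log2 fold change of the 8 was -0.29, and that of all genes tested was 0.01.

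**Figure D1:**
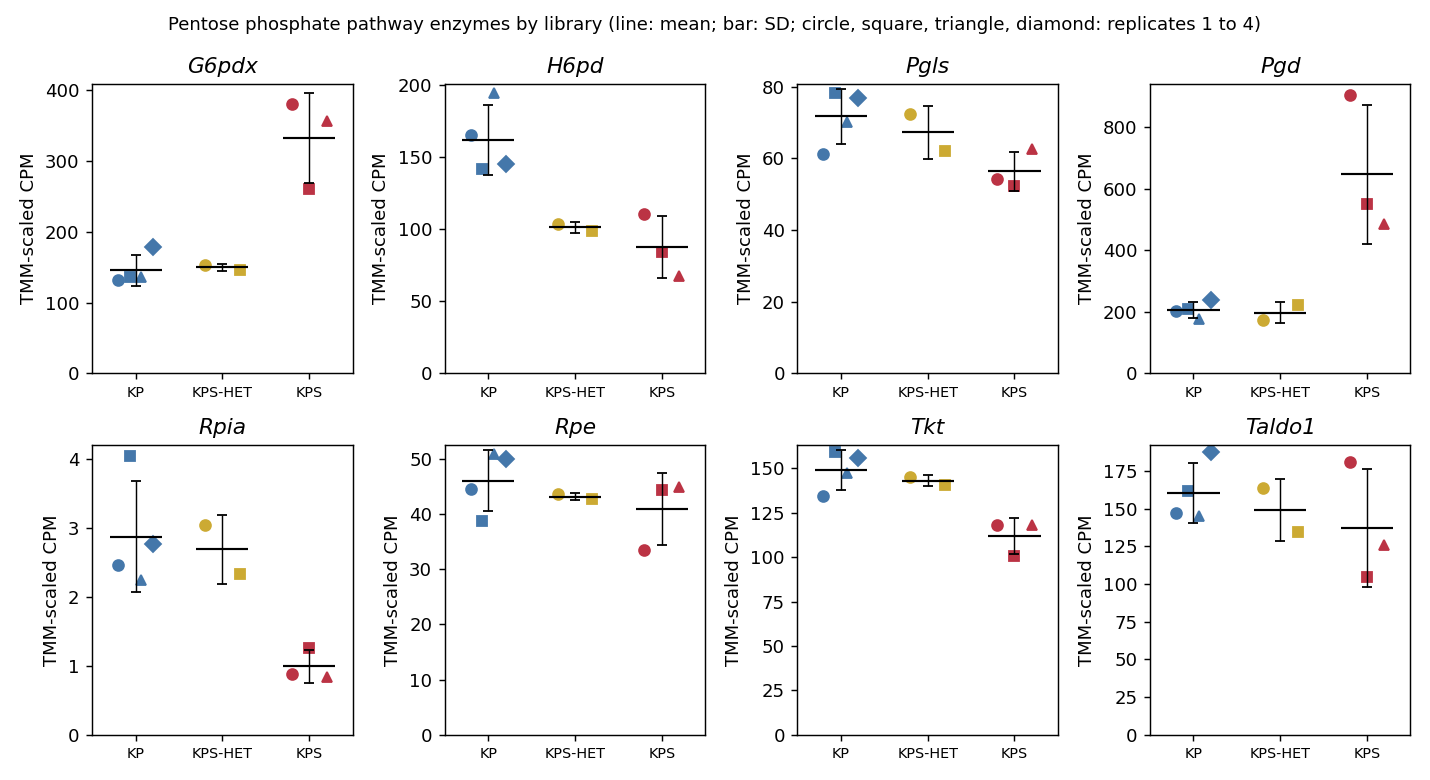
TMM-scaled CPM of each enzyme (y axis, from 0) in the KP, KPS-HET and KPS libraries; each marker is 1 library, the line is the group mean and the bar its SD. All 3 KPS libraries lie above every other library for G6pdx and Pgd, and below every KP library for H6pd, Rpia and Tkt.

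The upstream DNA of the 3 called enzymes is shown because these are the genes whose RNA differed. Each stretch is the 250 bases before the annotated start in RefSeq, build GRCm38.p6, on the gene's own strand. The count files were made on another build (mm9). Counts per gene do not show which start was used, so the annotated start is not known to be the one used in these cells. All 8 enzymes matched the RefSeq promoter table. Pgd has 2 annotated starts there, and the stretch shown belongs to the more upstream one. Capitals mark a match to TGACNNNGC, the core of the antioxidant response element that NRF2 binds, searched on both strands. G6pdx lies at chrX:74428881-74429130, Pgd at chr4:149166706-149166955 and H6pd at chr4:150003237-150003486, all on the minus strand.
G6pdx: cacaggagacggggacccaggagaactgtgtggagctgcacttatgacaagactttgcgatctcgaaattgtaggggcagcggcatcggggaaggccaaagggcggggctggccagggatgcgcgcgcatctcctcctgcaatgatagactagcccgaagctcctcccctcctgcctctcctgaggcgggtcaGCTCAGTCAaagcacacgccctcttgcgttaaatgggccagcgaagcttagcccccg
Pgd: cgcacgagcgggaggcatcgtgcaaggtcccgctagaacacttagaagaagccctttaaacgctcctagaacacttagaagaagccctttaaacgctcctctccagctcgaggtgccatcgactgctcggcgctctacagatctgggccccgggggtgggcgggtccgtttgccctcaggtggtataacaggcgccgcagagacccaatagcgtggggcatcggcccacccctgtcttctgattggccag
H6pd: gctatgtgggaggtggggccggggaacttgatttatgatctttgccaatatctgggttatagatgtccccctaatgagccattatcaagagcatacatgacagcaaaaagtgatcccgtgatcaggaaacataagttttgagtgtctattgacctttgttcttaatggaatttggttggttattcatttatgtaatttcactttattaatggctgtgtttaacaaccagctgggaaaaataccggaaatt

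The G6pdx match, printed GCTCAGTCA, reads as the motif on the opposite strand and lies 57 to 49 bases before the start. The window searched for each gene ran from 250 bases before to 50 bases after the start, and 12.4% of 32851 promoters in the table hold TGACNNNGC in that window. Neither Pgd's upstream start nor H6pd held a match to this motif. Pgd's other start held 1 match, TGACATTGC, 4 to 12 bases after it. The related core TGAGNNNGC, found in 17.6% of promoters, occurred once among the enzymes, in Taldo1 at 221 to 213 bases before the start. The AP-1 site TGANTCA (7.81% of promoters) and the E-box CACGTG (7.15%) were found in none of the 8 enzymes' windows. A match describes these letters and says nothing of binding.

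G6pdx encodes the enzyme that commits glucose 6-phosphate to the pathway. It stood at 131, 136, 137 and 179 CPM in KP replicates 1 to 4, at 153 and 147 CPM in KPS-HET, and at 380, 260 and 357 CPM in KPS replicates 1 to 3. The lowest KPS library lay above the highest library of the other 2 groups, and the KPS-HET libraries lay within the KP range. From a KP mean of 146 ± 22.3 CPM (SD, n = 4) to a KPS mean of 332 ± 63.6 CPM (SD, n = 3), the log2 fold change was 1.19 ± 0.16 (SE), with a 95% interval of 0.83 to 1.54 and an adjusted p of 0.0040 in edgeR, rank 82 among all genes tested by p.

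Pgd encodes the other NADPH-making dehydrogenase of the branch, which releases carbon dioxide. Its level was 202, 209, 175 and 239 CPM in KP replicates 1 to 4, 173 and 221 CPM in KPS-HET, and 904, 551 and 485 CPM in KPS replicates 1 to 3. Every KPS library again exceeded every other library. KPS replicate 1 stood well above the other 2 KPS libraries, and the coefficient of variation within KPS was 34.9%. From 207 ± 26.3 CPM in KP (SD, n = 4) to 647 ± 225 CPM in KPS (SD, n = 3) the log2 fold change was 1.65 ± 0.21 (SE; 95% interval 1.17 to 2.12; edgeR adjusted p = 0.0034; rank 68).

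Pgls, whose product opens the lactone ring between the dehydrogenase steps, did not pass the test. It was counted at 61.3 to 78.2 CPM in KP, 72.5 and 62.0 CPM in KPS-HET, and 52.4 to 62.5 CPM in KPS. The ranges overlapped, and the log2 fold change of -0.35 ± 0.13 (SE) did not pass after adjustment (edgeR adjusted p = 0.147; unadjusted p = 0.0272). Its 95% interval, -0.65 to -0.05, lay wholly below that of G6pdx and that of Pgd.

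H6pd is the hexose-6-phosphate dehydrogenase of the endoplasmic reticulum, where its NADPH serves 11-beta-hydroxysteroid dehydrogenase. It stood at 165, 142, 194 and 145 CPM in KP replicates 1 to 4, at 104 and 98.5 CPM in KPS-HET, and at 111, 83.8 and 67.8 CPM in KPS replicates 1 to 3. Here the KPS-HET libraries lay below all KP libraries, as they did for 6.63% of all genes tested, and inside the KPS range. The log2 fold change between KPS and KP was -0.88 ± 0.18 (SE; 95% interval -1.28 to -0.48; edgeR adjusted p = 0.0204), from 161 ± 24.3 CPM (SD, n = 4) to 87.5 ± 21.7 CPM (SD, n = 3). This call was lost without KP replicate 1 (adjusted p = 0.0551), without KPS replicate 2 (0.0600), without KPS replicate 3 (0.0636) and in the fit with a term for macrophage markers (0.0531), with log2 fold changes between -1.09 and -0.75.

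**Figure D2:**
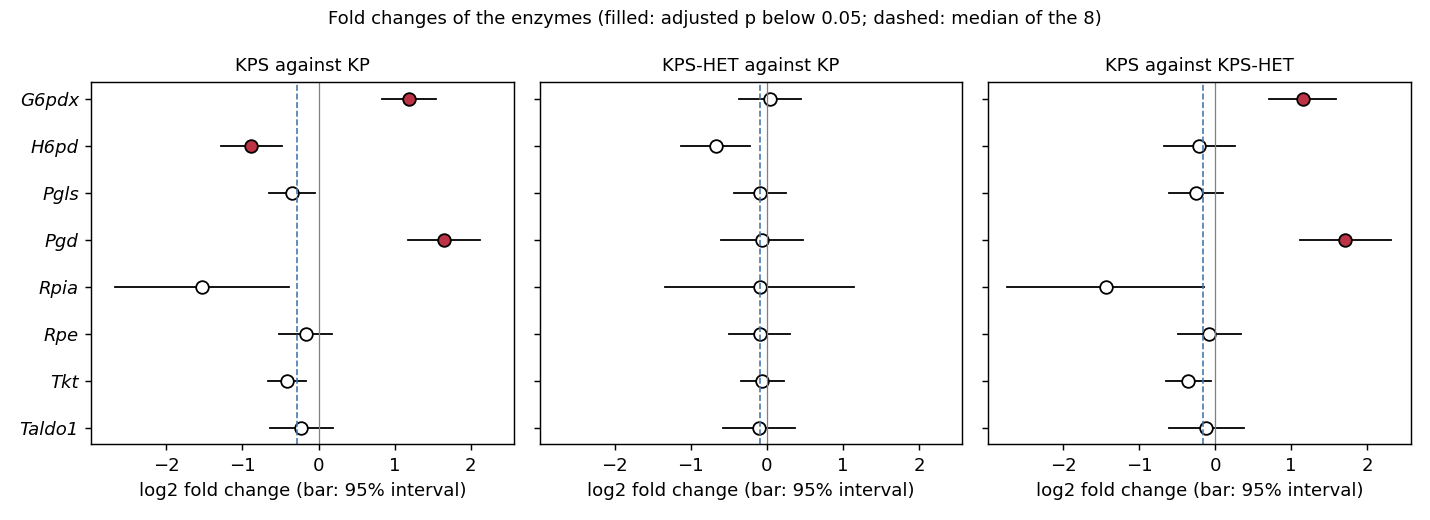
Log2 fold changes (x axis) of the 8 enzymes in the 3 comparisons, with 95% intervals as bars; filled points passed the adjusted threshold of 0.05 and the dashed line is the median of the 8. G6pdx and Pgd lie to the right against both KP and KPS-HET, and no enzyme is filled in KPS-HET against KP.

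None of the 4 non-oxidative enzymes passed the test in edgeR. Tkt, the thiamine-dependent transketolase, stood at 134, 159, 147 and 155 CPM in KP, 145 and 141 CPM in KPS-HET, and 118, 100 and 118 CPM in KPS. All KPS libraries lay below all others. The log2 fold change of -0.41 ± 0.11 (SE; 95% interval -0.66 to -0.16) nevertheless missed the threshold in edgeR, with an adjusted p of 0.0548 and an unadjusted p of 0.0043. DESeq2 called Tkt (-0.41, adjusted p = 0.0114).

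Rpia, which interconverts ribulose 5-phosphate and ribose 5-phosphate, had few counts. Its level was 2.46, 4.04, 2.24 and 2.76 CPM in KP, 3.04 and 2.34 CPM in KPS-HET, and 0.881, 1.26 and 0.833 CPM in KPS. These rest on 19 to 32 estimated counts per KPS library and 39 to 78.8 per KP library. KPS lay below both other groups, while KPS-HET lay within the KP range. The log2 fold change between KPS and KP of -1.53 ± 0.51 (SE) had a wide interval, -2.68 to -0.39, and missed the threshold in edgeR (adjusted p = 0.103). DESeq2 called it, with an adjusted p of 0.0154.

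Rpe and Taldo1 overlapped between all groups. Rpe, the epimerase that makes xylulose 5-phosphate, ranged from 38.8 to 50.7 CPM in KP, was 43.5 and 42.7 CPM in KPS-HET, and ranged from 33.4 to 44.9 CPM in KPS (log2 fold change -0.17 ± 0.16 SE; edgeR adjusted p = 0.563). Taldo1, the transaldolase, ranged from 145 to 188 CPM in KP, was 164 and 134 CPM in KPS-HET, and stood at 181, 105 and 126 CPM in KPS (-0.22 ± 0.19 SE; edgeR adjusted p = 0.515). KPS replicate 1, the library highest in Pgd, was also the highest KPS library in Taldo1. The 95% intervals, -0.52 to 0.18 for Rpe and -0.64 to 0.19 for Taldo1, leave room for a moderate fall as well as a small rise.

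Groups did not overlap between KPS and KP for 5 of the 8 enzymes, where 21.8% of all genes tested did not. Of these, G6pdx and Pgd were higher in KPS (2 of 8; 11.7% of all genes) and H6pd, Rpia and Tkt lower (3 of 8; 10.1%).

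With 1 floxed Smarca4 allele, the enzymes were not called as different from KP. None of the 8 was called in KPS-HET against KP, and 0 of all genes tested were (0%). At an unadjusted p below 0.05 there were 627 genes (4%), limma-voom called 0 genes and DESeq2 2, neither of them an enzyme of the pathway. G6pdx had a log2 fold change of 0.04 ± 0.18 (SE; 95% interval -0.36 to 0.44) and Pgd of -0.07 ± 0.24 (SE; 95% interval -0.61 to 0.47). The upper bounds of both intervals lay below the fold changes seen in KPS. Libraries of the 2 groups did not overlap for 1 of the 8 enzymes, H6pd, and for 13.4% of all genes tested, a like share. Both KPS-HET libraries lay below all 4 KP libraries for H6pd, as they did for 6.63% of all genes (6.77% lay above). The log2 fold change of H6pd was -0.67 ± 0.21 (SE; 95% interval -1.13 to -0.22), with an unadjusted p of 0.0082 and an adjusted p of 0.974 in edgeR. The remaining 5 enzymes had fold changes from -0.11 to -0.06 on the log2 scale, and 1 of the 8 fold changes was positive. The median of the 8 was -0.09, against -0.01 over all genes.

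KPS against KPS-HET gave the same 2 dehydrogenases: 2 of the 8 enzymes were called, both higher in KPS, where 0.932% of all genes tested were called 0.524% higher and 0.409% lower. This comparison uses the same KPS libraries as the one against KP, so the 2 do not stand alone. G6pdx was 2.22-fold higher (log2 1.15 ± 0.20 SE; 95% interval 0.71 to 1.59; edgeR adjusted p = 0.0338) and Pgd 3.28-fold higher (log2 1.71 ± 0.27 SE; 95% interval 1.11 to 2.32; edgeR adjusted p = 0.0290). H6pd differed by -0.21 ± 0.21 (log2, SE; edgeR adjusted p = 0.662), so its difference from KP had no counterpart here that passed the test. Groups did not overlap for 4 enzymes, with G6pdx and Pgd higher and Rpia and Tkt lower, and for 36.4% of all genes. The calls depended on single libraries. G6pdx lost its call in 8 of 19 alternative fits: with only the 2 groups (adjusted p = 0.0852), with the macrophage term (0.0662) and without KP replicate 1 (0.0618), KP replicate 2 (0.0511), KPS-HET replicate 1 (0.239), KPS-HET replicate 2 (0.178), KPS replicate 1 (0.0629) or KPS replicate 3 (0.0774). Pgd lost its call in 6: with only the 2 groups (0.0937), with the macrophage term (0.0608) and without KP replicate 1 (0.0549), KPS-HET replicate 1 (0.234), KPS-HET replicate 2 (0.113) or KPS replicate 2 (0.0548).

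**Figure D3:**
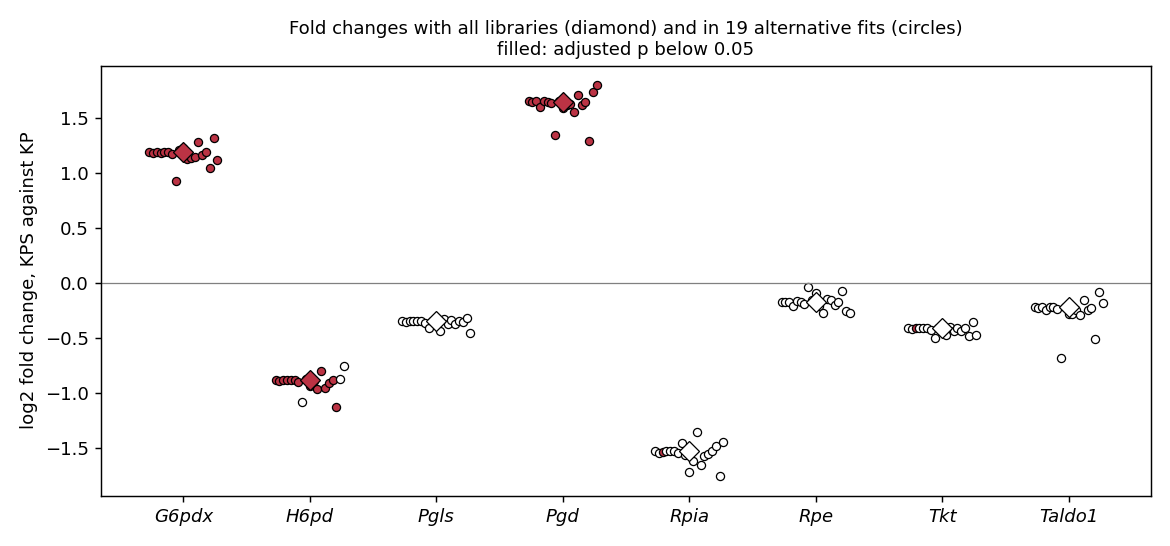
Log2 fold change in KPS against KP (y axis) of each enzyme with all libraries (diamond) and in 19 alternative fits (circles); filled symbols passed the adjusted threshold of 0.05. G6pdx (0.93 to 1.32) and Pgd (1.29 to 1.79) stay filled in every fit, while H6pd loses its call in 4.

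Against KP, the G6pdx and Pgd calls held in all 19 alternative fits. G6pdx ranged from 0.93 to 1.32 on the log2 scale with a highest adjusted p of 0.0372, and Pgd from 1.29 to 1.79 with a highest adjusted p of 0.0329. The lower end for Pgd came without KPS replicate 1, the library with the highest Pgd level (1.29, adjusted p = 0.0040). Pgls, Rpe and Taldo1 were called in none of the 19.

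Ratios of 2 enzymes within a library need no scaling between libraries. They are log2 ratios of counts, in which gene length is not removed, so only their change between groups is read. The 4 ratios use the same counts as the tests above and include enzymes called there, so they add no separate support. Pgls was in none of them. G6pdx to Tkt was -0.04 ± 0.18 in KP (SD, n = 4; -0.23 to 0.20), 0.08 and 0.06 in KPS-HET, and 1.69, 1.37 and 1.60 in KPS. Pgd to Taldo1 was 0.36 ± 0.08 in KP (SD, n = 4; 0.27 to 0.46), 0.08 and 0.72 in KPS-HET, and 2.32, 2.39 and 1.94 in KPS. Both ratios of an oxidative to a non-oxidative enzyme were higher in every KPS library than in any other, by 1.59 and 1.85 on average over KP. H6pd to G6pdx moved the other way, from 0.15 ± 0.35 in KP (SD, n = 4) through -0.56 and -0.57 in KPS-HET to -1.78, -1.63 and -2.39 in KPS. For each of these 3 ratios the groups KP and KPS did not overlap, and the two-sided exact permutation p was 0.0571, the smallest that 35 regroupings allow (0.0762 adjusted over 4 ratios), so a p below 0.05 could not be reached. Pgd to G6pdx was 0.51 ± 0.14 in KP (SD, n = 4) and 1.25, 1.08 and 0.44 in KPS, which overlap (difference 0.42; exact permutation p = 0.171, adjusted 0.171).

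**Figure D4:**
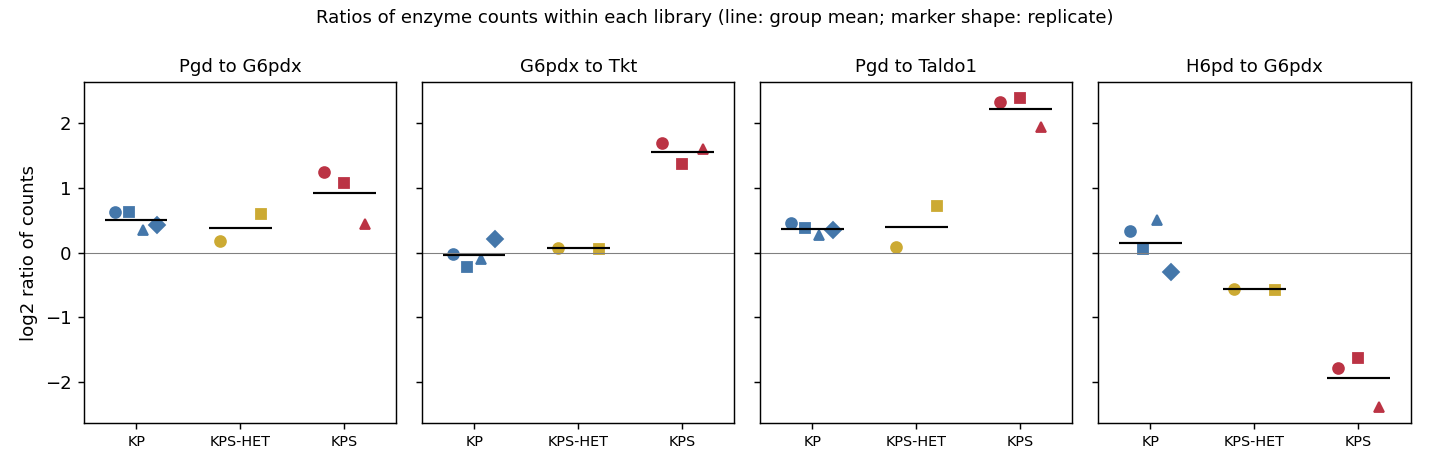
Log2 ratios of counts of 2 enzymes within each library (y axis) in the 3 groups; each marker is 1 library and the line is the group mean. KPS stands apart from KP for G6pdx to Tkt, Pgd to Taldo1 and H6pd to G6pdx, but not for Pgd to G6pdx.

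As a share of all counts in a library, the cytosolic oxidative enzymes G6pdx, Pgls and Pgd together took 0.0377% to 0.0485% in KP, 0.0410% and 0.0452% in KPS-HET, and 0.131%, 0.0833% and 0.0889% in KPS replicates 1 to 3. The 4 non-oxidative enzymes took 0.0340% to 0.0387% in KP, 0.0366% and 0.0337% in KPS-HET, and 0.0326%, 0.0242% and 0.0285% in KPS. The oxidative share was higher in every KPS library than in any other, and the non-oxidative share was lower. The oxidative sum rose through G6pdx and Pgd, as Pgls had a negative fold change in KPS against KP (log2 -0.35). Of the non-oxidative enzymes, Rpe and Taldo1 overlapped between groups. The closest non-oxidative shares were 0.0326% in a KPS library and 0.0337% in a KPS-HET library.

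Over the 9 libraries the enzymes fell into unlike patterns. Likeness was measured as the root mean square distance between 2 genes' log2 CPM, each centred on its own mean, and is a description over libraries that share their groups. Pgls and Tkt were closest, at 0.0849, and Taldo1 and Tkt were 0.193 apart. G6pdx and Pgd were 0.324 apart, and Pgd and Rpia were farthest, at 1.48. Among all genes with a mean of at least 5 CPM, the 5 nearest to G6pdx were Mal (0.151), Samd8 (0.163), Cdc42se2 (0.166), Dis3l (0.168) and Sfn (0.173), and those near Pgd included Sfn (0.156), Tgfbr2 (0.191), Srxn1 (0.215) and Arhgap8 (0.244). Sfn, which encodes the 14-3-3 sigma protein, was in both. Srxn1, sulfiredoxin, repairs over-oxidised peroxiredoxins. The 5 nearest to H6pd were Sel1l3 (0.163), Mpi (0.163), Oplah (0.168), Mboat7 (0.169) and Fam115a (0.171).

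Libraries differed in sex as well as in genotype. Xist, expressed from the inactive X chromosome of females, was at 338 to 725 CPM in KP replicate 2, KPS-HET replicate 1 and KPS replicates 1 and 2, and at no more than 1.40 CPM in the other 5, where 4 Y-linked genes summed to 169 to 208 CPM. G6pdx lies on the X chromosome. Its level in the female KP library was 136 CPM, inside the 131 to 179 CPM of the male KP libraries. The male KPS library had 357 CPM, between the female KPS values of 380 and 260 CPM. Sex was not balanced between KP and KPS, and its part in the G6pdx level was not tested. With sex as a term the log2 fold changes were 1.23 for G6pdx (edgeR adjusted p = 0.0081) and 1.59 for Pgd (0.0108).

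Macrophage markers also differed between libraries, within groups as well as between them. Of 19 markers of macrophages and monocytes, all tested, 15 had positive fold changes in KPS against KP. The list median was 2.79 on the log2 scale, and 3 were called higher (Cd14, Marco and Chi3l3), where 3.96% of all genes tested were. By edgeR, 0 of the 19 markers were called in KPS-HET against KP or in KPS against KPS-HET. Their summed level was 4458 to 10831 CPM in KP, 9883 and 3885 CPM in KPS-HET replicates 1 and 2, and 4843 to 11015 CPM in KPS. Lysozyme, which alveolar epithelium also makes, made up most of each sum. Cd14 was called in all 19 alternative fits, while Chi3l3 lost its call in 11 of 19 and Marco in 10 of 18, both of them without KPS replicate 1 (adjusted p = 0.152 and 0.157). Without Lyz1 and Lyz2, a split made after seeing the data, 17 markers summed to 241 to 347 CPM in KP, 1378 and 280 CPM in KPS-HET replicates 1 and 2, and 5078, 732 and 1533 CPM in KPS replicates 1 to 3. The order of the KPS libraries in Pgd was not this order, but the highest was the same library. KPS-HET replicate 1 had more of this marker RNA than KPS replicate 2, at 1378 against 732 CPM, of which Chi3l3 was 1028 and 366 CPM. Cd14 went the other way, at 89.8 against 286 CPM. The same libraries had 153 against 260 CPM of G6pdx and 173 against 551 CPM of Pgd. The part of macrophage RNA in the enzymes' levels was not tested. The macrophage level used as a term was the mean log2 CPM of all 19 markers, Lyz1 and Lyz2 included. With this term, the log2 fold changes in KPS against KP were 0.93 for G6pdx (edgeR adjusted p = 0.0372) and 1.35 for Pgd (0.0329).

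Marker calls in KPS against KP are given beside those of all genes tested, of which 3.96% were called higher and 3.28% lower. An unadjusted p below 0.05 was found for 24.3% of all genes. The red blood cell list, of which 2 genes could be tested and 1 was called higher, summed to 1.81 to 11.8 CPM in KP, 8.94 and 24.7 CPM in KPS-HET replicates 1 and 2, and 51.8 to 73.8 CPM in KPS, with Hbb-b1 at 0 in every library. The 6 endothelial markers (1 called higher) summed to 9.52 to 20.0 CPM in KP and 20.2 to 83.5 CPM in KPS, and the 6 fibroblast markers (1 called higher) to 5.30 to 8.08 CPM in KP and 7.53 to 63.8 CPM in KPS. Neutrophil markers (0 of 5 called by edgeR, 1 by DESeq2, 1 at an unadjusted p below 0.05) summed to 15.7 to 42.9 CPM in KP and 28.7 to 66.5 CPM in KPS. Markers of T and NK cells summed to at most 4.10 CPM in KP and 3.69 CPM in KPS, and those of B cells (1 of 2 called lower) to 8.33 to 9.28 CPM and 3.06 to 5.32 CPM. The part of these cells in the enzymes' levels was not tested. The 9 lung epithelial markers summed to 55331 to 84648 CPM in KP and 22895 to 45551 CPM in KPS, where 1 was called higher and 2 lower. In KPS-HET replicates 1 and 2 the sums were 65469 and 44631 CPM. Sftpc weighed most in the means, at 50017 CPM in KP and 23579 CPM in KPS (log2 -1.08, edgeR adjusted p = 0.126). Of the 9 fold changes 3 were positive, among them Cdh1, the marker called higher (1.02, edgeR adjusted p = 0.0085). The markers called lower were Nkx2-1 (-0.68, edgeR adjusted p = 0.0309) and Sftpb (-0.70, edgeR adjusted p = 0.0370). Epcam changed by -0.01. None of 15 mitosis and DNA replication genes was called by edgeR, limma-voom or DESeq2, and 0 had an unadjusted p below 0.05, with sums of 302 to 501 CPM in KP and 353 to 448 CPM in KPS, and the G6pdx and Pgd fold changes with that level as a term were 1.21 and 1.65.

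In 6 lists of genes around the pathway, 6 of 87 tested genes were called in KPS against KP (6.9%), close to the 7.24% of all genes tested. Of these, 5 were higher (5.75%, against 3.96% of all genes) and 1 lower (1.15%, against 3.28%). No list held more than 2 of these calls, and a share near that of all genes says nothing particular of a list. Among genes that lead to or from ribose phosphate, 11 of 15 could be tested, 0 rose and 1 fell, with 5 positive fold changes and a median of -0.12 (log2; 0.01 over all genes). The gene that fell was Prps2, a synthetase that turns ribose 5-phosphate into the phosphoribosyl donor for nucleotides. It went from 90.6, 81.1, 57.0 and 60.2 CPM in KP to 27.3, 45.1 and 28.1 CPM in KPS, with 65.3 and 58.3 CPM in KPS-HET (log2 -1.11 ± 0.23 SE; edgeR adjusted p = 0.0220). Its isozyme Prps1 stood at 41.3 to 49.3 CPM in KP and 57.4 to 90.4 CPM in KPS (0.59 ± 0.17 SE; adjusted p = 0.0682), which did not pass. G6pd2, an intronless copy of G6pdx, was at 0 counts in all 9 libraries, and the transketolase-like Tktl2 likewise; Tktl1 reached no more than 0.779 CPM. The Prps2 call was lost with the macrophage term (adjusted p = 0.160) and without KP replicate 1 (0.0535), KPS replicate 1 (0.0538) or KPS replicate 3 (0.0701).

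No gene of the other sources of NADPH passed the test in edgeR. Of 13 genes listed, 12 were tested, 3 had positive fold changes and the median was -0.32. At an unadjusted p below 0.05 there were 4 of the 12, where 24.3% of all genes tested were. DESeq2, which called more of all genes than edgeR did, called 2 of the 12 and limma-voom 1. Idh2, the mitochondrial NADP-dependent isocitrate dehydrogenase, went from 272 ± 51.1 CPM (SD, n = 4) to 173 ± 27.2 CPM (SD, n = 3), a log2 change of -0.66 ± 0.18 (SE; edgeR adjusted p = 0.0520). Nadk, the cytosolic kinase that makes NADP, stood at 174 ± 27.3 CPM in KP and 250 ± 14.6 CPM in KPS (0.52 ± 0.15 SE; adjusted p = 0.0710).

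Among 14 users of NADPH, 1 rose (3.96% of all genes tested) and 0 fell (3.28%), with 8 positive fold changes and a median of 0.11. This was Gsr, glutathione reductase, which spends NADPH to recycle glutathione. It had 182 to 248 CPM in KP, 205 and 260 CPM in KPS-HET, and 268, 344 and 508 CPM in KPS (log2 0.85 ± 0.21 SE; edgeR adjusted p = 0.0374). Its KPS libraries lay above all others. Gsr lost its call in 9 of 19 alternative fits, among them those with the macrophage term (1.08, adjusted p = 0.0674) and without KPS replicate 3 (0.53, adjusted p = 0.125), KP replicate 1 (0.0964), KP replicate 2 (0.0931), KP replicate 3 (0.0790), KP replicate 4 (0.0507), KPS-HET replicate 1 (0.0532), KPS-HET replicate 2 (0.05001) and KPS replicate 2 (0.0700).

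In glycolysis around the branch point, 2 of 21 genes rose (3.96% of all genes tested) and 0 fell (3.28%), with 7 positive fold changes and a median of -0.16. Hk1, a hexokinase that supplies glucose 6-phosphate to both routes, was at 89.3 to 116 CPM in KP, 76.5 and 96.5 CPM in KPS-HET, and 175, 191 and 209 CPM in KPS. Its log2 fold change was 0.87 ± 0.14 against KP (SE; edgeR adjusted p = 0.0076), called in all 19 alternative fits, and 1.15 against KPS-HET (adjusted p = 0.0247), lost in 5 of 19 (up to 0.187, without KPS-HET replicate 1; also without KPS-HET replicate 2 at 0.0824, KPS replicate 2 at 0.0673 and KPS replicate 3 at 0.0574). By edgeR it was the 1 gene of the 87 called against KPS-HET; DESeq2 called 1 to 3 genes in each of the 6 lists, and limma-voom called 1 gene of this list and 1 of the regulators. Hk2 stood at 64.3 ± 10.2 CPM in KP and 45.2 ± 6.25 CPM in KPS (-0.51 ± 0.16 SE; adjusted p = 0.0821). Pfkfb3, which makes the activator of phosphofructokinase, stood at 19.4 to 33.3 CPM in KP, 27.5 and 27.2 CPM in KPS-HET, and 119, 50.9 and 44.1 CPM in KPS (1.37 ± 0.32 SE; edgeR adjusted p = 0.0347). Its call was lost in 11 of 19 alternatives, among them each fit without a KP or KPS-HET library (adjusted p up to 0.0985), and without KPS replicate 1, the library highest in macrophage markers, the fold change was 0.74 (adjusted p = 0.0836). With the macrophage term it was 0.72 (adjusted p = 0.386).

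Of 18 genes of purine and pyrimidine synthesis, 1 rose (3.96% of all genes tested) and 0 fell (3.28%), with 7 positive fold changes and a median of -0.01. This was Ctps, CTP synthase, at a mean of 82.5 ± 19.7 CPM over the 4 KP libraries (SD) and of 173 ± 11.5 CPM over the 3 KPS libraries (SD), a log2 change of 1.07 ± 0.20 (SE; edgeR adjusted p = 0.0146). The call was lost without KPS replicate 3 (0.99, adjusted p = 0.0547) and with the macrophage term (1.17, adjusted p = 0.0603). At an unadjusted p below 0.05 none of these genes differed in KPS-HET against KP (4% of all genes tested). There edgeR, DESeq2 and limma-voom called 0. In KPS against KPS-HET 2 of the 18 had such a p (16.5% of all genes), with 0 called by edgeR or limma-voom and 1 by DESeq2.

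The last list held NRF2 and other regulators known to act on the pathway's genes. Of 11, 1 rose (3.96% of all genes tested) and 0 fell (3.28%), with 9 positive fold changes and a median of 0.15. Sqstm1, whose protein p62 competes with NRF2 for KEAP1, was at a mean of 751 ± 56.4 CPM over the 4 KP libraries (SD) and of 1071 ± 162 CPM over the 3 KPS libraries (SD; log2 0.51 ± 0.13 SE; edgeR adjusted p = 0.0419), a call lost in 11 of 19 alternatives, including each of the 8 fits that left out a library other than KPS replicate 2 (adjusted p up to 0.156) and the fit with the macrophage term (0.34, adjusted p = 0.349). Nfe2l2, the gene of NRF2 itself, stood at 257 to 326 CPM in KP and 242 to 335 CPM in KPS (log2 -0.00 ± 0.14 SE; edgeR adjusted p = 0.998), and Keap1, its inhibitor, changed by 0.19 ± 0.16 (SE; adjusted p = 0.512). RNA levels of these regulators do not measure their protein or activity. In KPS-HET against KP, no gene of the 6 neighbouring lists was called by edgeR, DESeq2 or limma-voom. At most 2 genes of a list had an unadjusted p below 0.05 there, as did 4% of all genes tested.

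**Figure D5:**
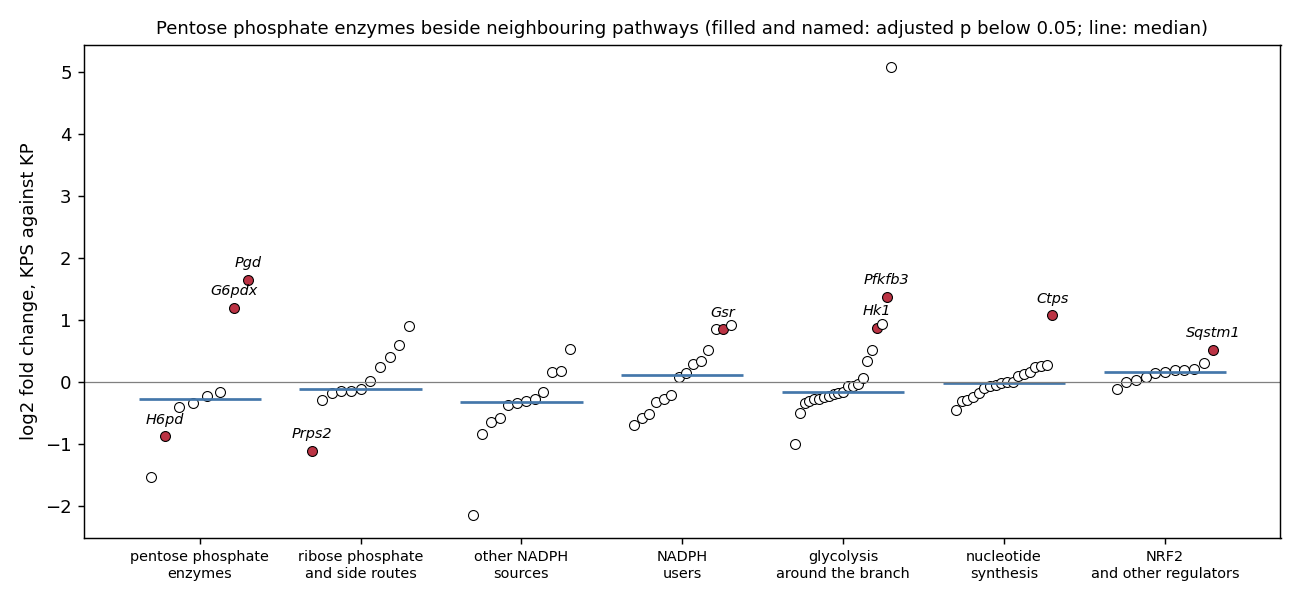
Log2 fold change in KPS against KP (y axis) of every tested gene of the pathway and of 6 neighbouring lists; filled, named points passed the adjusted threshold of 0.05 and the line is each list's median. Pgd and G6pdx lie above zero while the medians of the pathway (-0.29) and of the other NADPH sources (-0.32) lie below it.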

How the data were processed

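RNA from sorted mouse lung cancer cells (9 libraries) was made into libraries with a low-input polyA kit, per the labels' protocols. The authors deposited 1 estimated count per gene and library, unscaled, from RSEM 1.3.1 with Bowtie 1.2.3 on the build mm9, per the submitters' processing notes. Neither the annotation nor the strand setting is given in the sources used here, so reads of overlapping genes cannot be told apart, and reads shared by near-identical copies are divided by the estimation. Of the symbols, 25 were dates.

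Counts were rounded (by at most 0.5), filtered with filterByExpr (minimum count 10, minimum total 15; 7561 genes removed) and tested with edgeR 4.0.16 (R 4.3.3): TMM scaling, robust quasi-likelihood F test, two-sided, 1 coefficient per group over 9 libraries, 6 residual degrees of freedom, Benjamini-Hochberg over 15663 genes, with a threshold of 0.05. Genes had a common biological coefficient of variation of 0.430. Groups follow the genotype label, and replicates are numbered in the order of the samples. Spearman correlations between libraries were 0.922 to 0.976.

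The members and gene lists were chosen with earlier results of these data known. The rule for naming genes took all 8 members, the 4 genes of smallest p in each list at most, genes of the lists called in the other comparisons, and the 5 nearest genes to each called member (mean of at least 5 CPM, prior count 2). Ratios used a prior count of 0.5. The 19 alternatives were other scalings, DESeq2 1.42.0, limma-voom (limma 3.58.1), no filter, no robust estimates, only the groups compared, macrophage, mitosis or sex terms, and each library left out. The fit was tested on simulated data. Part of the genotype and 1 gene that the naming rule took are not reported here. Promoters came from RefSeq tables (GRCm38.p6). Some genes of the lists carried older symbols in the table (Tigar, Idnk, Adgre1 and Chil3), and Nadk2 and Ly6g were not matched.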

Additional observations from a re-analysis of the deposited data

Results flagged for a closer look

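G6pdx in KP replicate 4 stood at 179 CPM, apart from the other 3 KP libraries at 131 to 137 CPM. Its gap to the nearest of them, divided by the range of the group, exceeded Dixon's critical value for 4 samples (0.829). Chance marks about 1 in 20 groups in this way, and 8 enzymes were looked at. Without KP replicate 4, the log2 fold change of G6pdx in KPS against KP was 1.28 (edgeR adjusted p = 0.0072). The cause of the higher value was not tested.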

How the results depend on the processing

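Against KP, the number of genes called (1134 of those tested) was 2280 with DESeq2, 374 with the macrophage term, and 505 to 956 with 1 library left out (512, 738 and 673 when KP replicates 1, 2 and 4 were left out, 694 and 505 when KPS replicates 2 and 3 were). The enzymes called numbered 3 of 8, 5 with DESeq2 and 2 to 3 with 1 library left out. In KPS-HET against KP, DESeq2 called 2 genes. In KPS against KPS-HET, 146 genes were called, 991 with DESeq2, 15 with only these groups, and 1 to 150 with 1 library left out (52 and 81 when KP replicates 1 and 4 were left out, 1 and 15 when KPS-HET replicates 1 and 2 were, 42 and 61 when KPS replicates 2 and 3 were). The enzymes called there numbered 2, 0 with only these groups or the macrophage term, and 0 to 2 with 1 library left out (0 without KP replicate 1 or either KPS-HET library, and 1 without KP replicate 2 or any of the 3 KPS libraries). Where 1 KPS-HET library remained, it is assumed to vary like the other groups. Fold changes that were not called changed sign: G6pdx in KPS-HET against KP was -0.049 with the macrophage term. With 1 library left out, that comparison gave -0.29 to 0.11 for Rpia, -0.26 to 0.11 for Pgd, -0.20 to 0.014 for Pgls and -0.24 to 0.026 for Taldo1, and KPS against KPS-HET gave -0.18 to 0.014 for Rpe and -0.40 to 0.022 for Taldo1. The 4 ratios kept their direction with a prior count of 5 and with each library left out. The cause of these shifts was not tested. No paired analysis was possible because the replicate numbers only follow the order of the samples. Few counts limit Rpia, and 2 libraries limit KPS-HET.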
